A study of Homo sapiens with 36 samples.

Results

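The miR-532, miR-500a and miR-660 cluster is a run of microRNA (miRNA) hairpins inside CLCN5, the X-linked gene of the endosomal chloride/proton exchanger ClC-5. Its members here were the 8 mature miRNAs of the cluster chosen by name, hsa-miR-532-5p, hsa-miR-532-3p, hsa-miR-500a-3p, hsa-miR-501-3p, hsa-miR-502-3p, hsa-miR-660-5p, hsa-miR-362-5p and hsa-miR-362-3p, out of 1508 miRNAs listed. All 8 had a row, and 7 were among the 360 miRNAs that passed the low-count filter. hsa-miR-362-3p did not pass it. The small RNA came from WI-38, normal human fibroblasts of lung origin, and was sequenced as 36 libraries, 2 replicates of each of 18 conditions. Proliferating untreated cells were the control (Ctrl). PMD-Sen cells, in which plasma membrane damage induces senescence, had been kept in 0.0095% sodium dodecyl sulphate (SDS, a detergent) for 24 h. DDR-Sen cells, in which the DNA damage response does so, had been kept in 250 nM doxorubicin (DXR) for 24 h. Both series were sampled on 8 days, from D0, the end of the treatment, daily to D4 and then at D6, D8 and D16. RS cells were untreated cells in replicative senescence, at a population doubling level of 54 to 56. The question put to these libraries was whether miRNAs that 1 primary transcript could carry changed, and changed together, as the cells became senescent.

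A miRNA gene is transcribed into a long primary RNA, from which the nuclear enzyme Drosha cuts a hairpin. Dicer then cuts the hairpin into a duplex of a 5p and a 3p arm, and usually 1 arm is kept by an Argonaute protein while the other is degraded. The kept arm pairs with messenger RNAs mainly through its seed, bases 2 to 8, and lowers their translation and stability. Hairpins that lie close together on the same strand are often cut from 1 primary RNA, so that transcription sets their levels together, while cutting and decay can set them apart.

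On GRCh38, GENCODE v44 places CLCN5 (ENSG00000171365.17) at chrX:49922596-50099235 on the plus strand. All 8 hairpin genes of the cluster lie on the same strand in intron 3 of its canonical transcript, chrX:49925315-50042315, and none overlaps an exon of the 3 CLCN5 transcripts that span them. In order along the strand they are MIR532 (chrX:50003148-50003238), MIR188 (chrX:50003503-50003588), MIR500A (chrX:50008431-50008514), MIR362 (chrX:50008964-50009028), MIR501 (chrX:50009722-50009805), MIR500B (chrX:50010672-50010750), MIR660 (chrX:50013241-50013337) and MIR502 (chrX:50014598-50014683). The cluster spans 11536 bases. The widest gaps are the 4842 bases between MIR188 and MIR500A and the 2490 bases between MIR500B and MIR660.

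The mature sequences are shown because several members are near copies of each other, which decides how well their reads can be told apart. They come from RefSeq (GRCh38.p14), which matched 7 of the 8 members. Each is written 5′ to 3′ with its seed, bases 2 to 8, in capitals. The first group holds the 3p members that resemble each other, with the 3p arm of miR-362.
hsa-miR-500a-3p: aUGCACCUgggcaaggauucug
hsa-miR-501-3p: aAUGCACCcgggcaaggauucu
hsa-miR-502-3p: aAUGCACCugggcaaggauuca
hsa-miR-362-3p: aACACACCuauucaaggauuca
The second group holds both arms of miR-532, the 5p arm of miR-362 and hsa-miR-501-5p, the other arm of the miR-501 hairpin, which appears in the results.
hsa-miR-532-5p: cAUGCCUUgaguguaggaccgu
hsa-miR-532-3p: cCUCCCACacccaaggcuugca
hsa-miR-362-5p: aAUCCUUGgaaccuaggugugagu
hsa-miR-501-5p: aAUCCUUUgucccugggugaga

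Among the members with a sequence, hsa-miR-501-3p and hsa-miR-502-3p were the pair with the same seed, AUGCACC. Aligned without gaps and counted from 1 at the 5′ end of hsa-miR-501-3p, they differ at 2 of 22 positions, C9U and U22A. hsa-miR-500a-3p shares an unbroken run of 20 bases with hsa-miR-502-3p, but starts 1 base later in it, so that its seed is UGCACCU. hsa-miR-532-5p, hsa-miR-532-3p, hsa-miR-362-5p and hsa-miR-362-3p each have a seed of their own among the members. Mature hsa-miR-501-3p lies at chrX:50009772-50009793 and hsa-miR-502-3p at chrX:50014649-50014670. hsa-miR-500a-3p lies at chrX:50008482-50008503, hsa-miR-362-3p at chrX:50009005-50009026 and hsa-miR-362-5p at chrX:50008968-50008991. hsa-miR-532-5p lies at chrX:50003167-50003188, hsa-miR-532-3p at chrX:50003204-50003225 and hsa-miR-501-5p at chrX:50009735-50009756.

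The near copies also bear on the counts. The table holds expected counts, in which a read that fits several miRNAs is divided among them, so a shared read leaves a fraction. hsa-miR-500a-3p had a count that was not whole in 22 of 36 libraries, hsa-miR-502-3p in 20 and hsa-miR-501-3p in 5. The other 5 members had whole counts in all 36 libraries. The split between hsa-miR-500a-3p and hsa-miR-502-3p is therefore uncertain. All values of either miRNA below carry this uncertainty, including their levels, differences from Ctrl, arm shares and correlations. Their sum was computed only for the comparison of PMD-Sen with DDR-Sen over D1 to D16, and is given there.

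The libraries held 81670 to 1933442 counts, and the 8 members together took 0.0508% to 0.116% of a library. Of the 36 libraries, the lowest share was that of RS replicate 2 and the highest that of RS replicate 1, so the RS replicates stood further apart in this cluster than any other condition. The shares were 0.0667% and 0.0684% in Ctrl, had a median of 0.0866% over 16 PMD-Sen libraries (0.0617% to 0.110%) and a median of 0.0686% over 16 DDR-Sen libraries (0.0607% to 0.0931%). All 6 fibroblast miRNAs looked up as a check of the cell type had a row, and 5 passed the low-count filter. Together the 6 stood at 48284 to 125194 CPM (counts scaled to a common library size with edgeR's TMM factors). Of 4 leukocyte miRNAs 0 passed the low-count filter, and their summed level was at most 8.81 CPM. The epithelial list summed to 14.6 to 163 CPM with 1 of its 4 miRNAs passing the filter. Of 2 erythroid miRNAs 0 passed it, and their sum was at most 12.6 CPM. The liver miRNA hsa-miR-122-5p passed the filter and stood at 6.44 to 264 CPM, with a median of 71.1 CPM. The labels call the 2 libraries of a condition biological replicates. All levels are relative to the total miRNA of a library, so fewer copies per cell and more of other miRNAs cannot be told apart.

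Within the cluster the levels fell into 3 tiers. hsa-miR-532-5p and hsa-miR-501-3p were the most abundant, with means over the 18 conditions of 188.4 CPM (SD over conditions 32.3) and 188.3 CPM (SD 40.6). hsa-miR-532-5p was the higher of the pair in 19 of 36 libraries, so their order is not set. hsa-miR-500a-3p followed at 142 CPM (SD 27.6) and was below hsa-miR-501-3p in 28 of 36 libraries. hsa-miR-502-3p at 112 CPM (SD 18.0) and hsa-miR-362-5p at 109 CPM (SD 22.0) could not be ordered, since hsa-miR-502-3p was higher in 18 of 36 libraries.

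The step to the next tier held in every library. hsa-miR-362-5p was above hsa-miR-660-5p in 36 of 36 libraries. hsa-miR-660-5p averaged 27.1 CPM (SD 11.3) and hsa-miR-532-3p 22.1 CPM (SD 10.4), and their order changed with the library, hsa-miR-660-5p being higher in 21 of 36. hsa-miR-362-3p averaged 1.81 CPM (SD 1.68). It had 0 to 4 counts and was at 0 in 17 of 36 libraries, which is at or near the floor of 3 counts that a count of 0 allows, so it was not compared between conditions. These values compare read counts of different miRNAs, and ligation can favour some sequences over others.

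**Figure D1:**
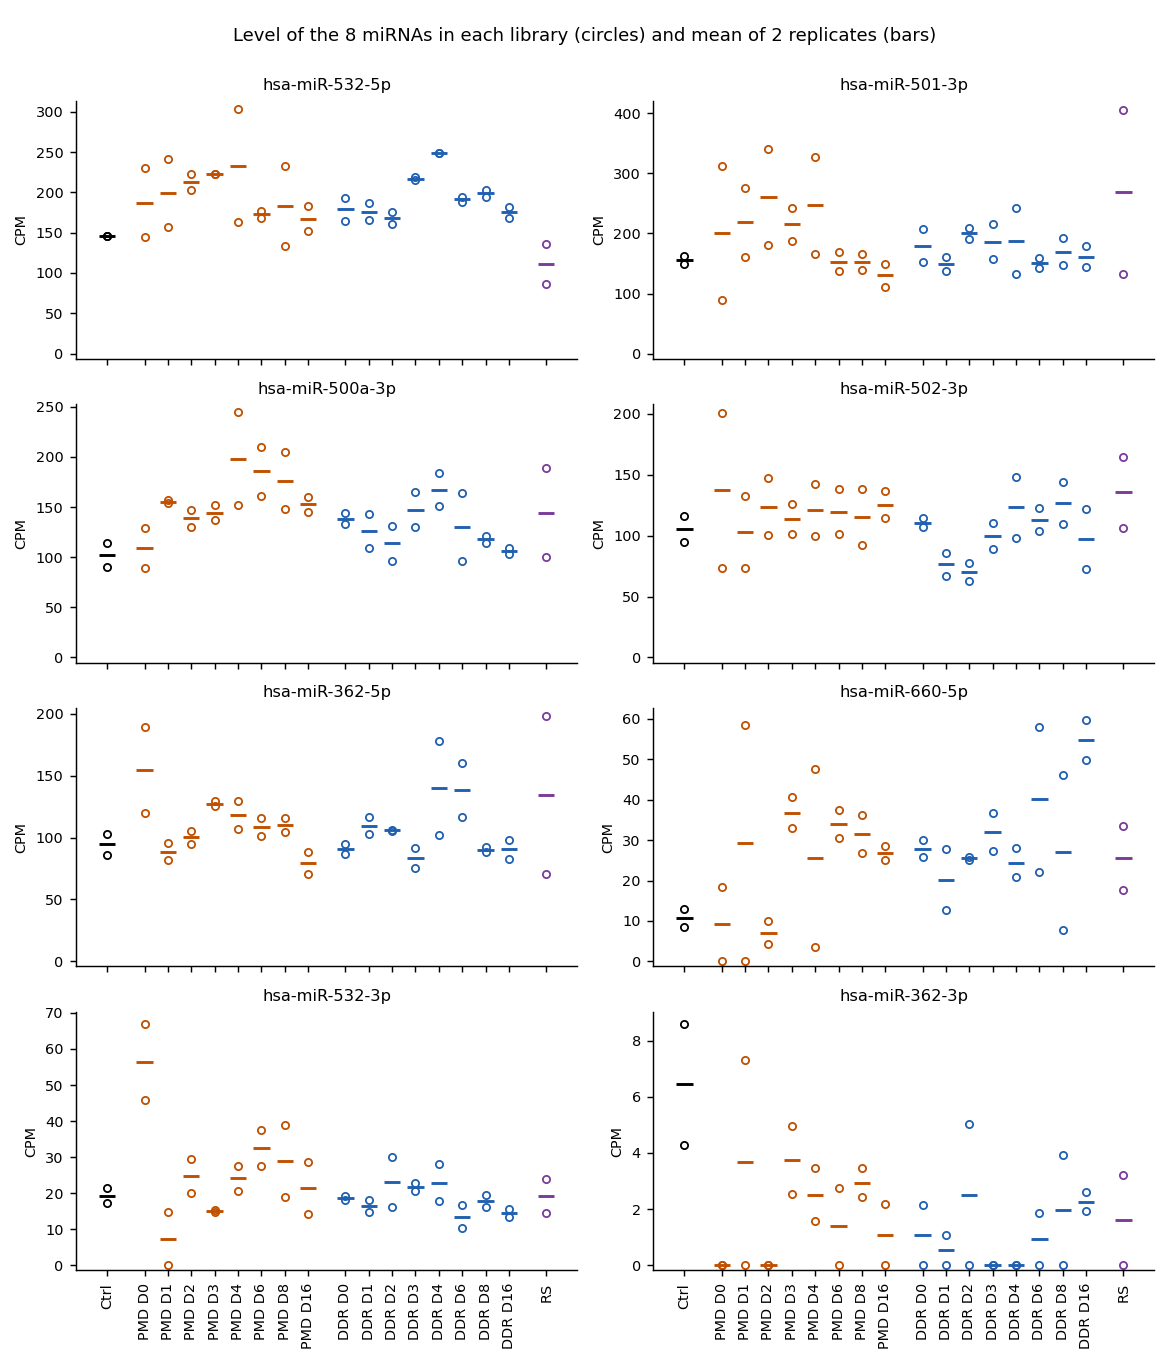
CPM (vertical axis, linear, different for each miRNA) of the 8 members in the 18 conditions (horizontal axis); each circle is 1 library and each bar the mean of 2 replicates. hsa-miR-532-5p stays between 86.9 and 303 CPM in all 36 libraries, hsa-miR-660-5p is at 0 in 2 PMD-Sen libraries, and the RS replicates of hsa-miR-501-3p lie at 405.6 and 132 CPM.

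The first comparison, which was added after seeing the data, asked whether the members varied among the 18 conditions at all. With edgeR's quasi-likelihood test over the 18 conditions, 0 of 7 tested members differed at an adjusted p below 0.05, and 0 of 7 at an unadjusted p below 0.05, whereas 39.2% of all 360 tested miRNAs passed at the adjusted threshold (141, and 178 unadjusted). The smallest adjusted p among the members was that of hsa-miR-532-5p, 0.256, and the largest that of hsa-miR-502-3p, 0.710.

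The spread behind this test can be given on the log2 CPM scale. The condition means of hsa-miR-532-5p had an SD of 0.26, of hsa-miR-500a-3p 0.27, of hsa-miR-501-3p 0.26, of hsa-miR-362-5p 0.26 and of hsa-miR-502-3p 0.24. The median over the 7 members was 0.26, against 0.43 over all tested miRNAs. The replicate SD was 0.39 at the median of the members and 0.43 over all tested miRNAs. For 5 abundant members the SD of the condition means thus lay below the median of all tested miRNAs. Their condition means still ran from 111 to 249 CPM for hsa-miR-532-5p and from 130 to 269 CPM for hsa-miR-501-3p. The ranges were 102 to 198 CPM for hsa-miR-500a-3p, 70.1 to 137 CPM for hsa-miR-502-3p and 79.4 to 154 CPM for hsa-miR-362-5p. hsa-miR-660-5p, which rests on a median of 11 counts a library, had an SD of 0.67 between conditions and of 0.99 between replicates. Without any difference between conditions, a mean of 2 replicates would still vary by the replicate SD over the square root of 2. Relative to that value, the SD of the condition means was 1.12 at the median of the members and 1.42 over all tested miRNAs. Among the members this ratio ran from 0.71 (hsa-miR-501-3p) to 1.57 (hsa-miR-532-3p). Of 3 other clusters listed for comparison, 4 of 5 tested miRNAs of miR-17-92 (a cluster that drives proliferation), 3 of 6 of miR-106b-25 (its relative within MCM7) and 3 of 6 of the miR-424 cluster (also X-linked) passed the same test.

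Each condition was then compared with Ctrl by the study's rule, an unadjusted p below 0.05 with an absolute log2 difference above 1, here with edgeR over all 36 libraries. The 7 members gave 119 tests over 17 conditions and 2 calls, both increases, hsa-miR-532-3p at PMD-Sen D0 and hsa-miR-660-5p at DDR-Sen D16. That is 1.68% of the members' tests, beside 9.90% of all 6120 tests. At an adjusted p below 0.05 there were 0 member calls in the 17 conditions with edgeR. After every library was thinned at random to the smallest total, 81670 counts, 5 members and 245 miRNAs in all passed the filter. In 1 such draw the PMD-Sen days then gave 10 member calls, all increases, which is 25% of 40 tests beside 7.40% of all 1960. The DDR-Sen days gave 5, also increases, or 12.5% beside 8.47%. At adjusted p there were 0 member calls in the thinned data with edgeR. In the PMD-Sen series the rule called 1 member at D0, where 5.28% of all tested miRNAs were called, and 0 members on the 7 later days, where it called 16.9% of all at D16, 13.3% at D8, 9.17% at D6, 6.39% at D4, 2.78% at D3, 6.39% at D2 and 7.22% at D1. In the DDR-Sen series it called 0 members from D0 to D8, beside 3.89% of all tested (D0), 6.94% (D1), 6.94% (D2), 5.83% (D3), 9.17% (D4), 11.7% (D6) and 12.8% (D8), and 1 member at D16, beside 21.4%. In RS it called 0 members, beside 22.2%.

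hsa-miR-532-3p is the less abundant arm of its hairpin. Its levels were 46.0 and 66.9 CPM at PMD-Sen D0 and 21.5 and 17.2 CPM in Ctrl, so both treated libraries lay above both controls. The counts were 5 and 6 in each condition, since the D0 libraries were the smallest of the series. The log2 difference was 1.54 (SE 0.70, 95% interval 0.11 to 2.96; adjusted p = 0.389, edgeR). One day later it stood at 14.6 and 0 CPM, below Ctrl, and from D2 to D16 at 14.1 to 39.0 CPM. In the DDR-Sen series it ranged from 10.2 to 30.2 CPM. Without PMD-Sen D0 replicate 2, or without Ctrl replicate 1, no member was called in the PMD-Sen series.

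hsa-miR-660-5p, the 5p arm kept from its hairpin, was called at DDR-Sen D16. It stood at 59.6 and 49.9 CPM there and at 12.9 and 8.58 CPM in Ctrl, and the groups did not overlap. The Ctrl libraries held 3 counts each, which is the floor, and those of DDR-Sen D16 held 23 and 26. The ratio of the summed counts, scaled for library size, was 5.24, with a 95% counting interval of 2.24 to 15.0. The fit with edgeR gave a log2 difference of 2.36 (SE 0.91, 95% interval 0.49 to 4.23; adjusted p = 0.0590). Over its alternatives the adjusted p ran from 0.00227, with only the 4 libraries compared, to 0.277, without Ctrl replicate 2.

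The low Ctrl value of hsa-miR-660-5p entered every comparison with Ctrl. Its fitted log2 difference was above 1 in 15 of 17 conditions, with standard errors of 0.91 to 1.58, and the 95% interval left out 0 at DDR-Sen D16 alone. In PMD-Sen the replicates lay far apart at D1, with 58.6 and 0 CPM, and at D4, with 47.5 and 3.44 CPM. They lay closer at D2, with 10.0 and 4.20 CPM, and at D3, with 33.0 and 40.5 CPM. From D6 on both replicates lay close, between 25.0 and 37.4 CPM.

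The 5 abundant members gave tighter intervals. hsa-miR-500a-3p was above Ctrl in 17 of 17 conditions, by 0.04 (DDR-Sen D16) to 0.92 (PMD-Sen D4) on the log2 scale, with standard errors of 0.33 to 0.41. Its Ctrl libraries, at 90.2 and 114 CPM, gave the lowest mean of the 18 conditions, and its interval left out 0 at PMD-Sen D4, D6 and D8. At PMD-Sen D4 it stood at 152 and 245 CPM (log2 difference 0.92, SE 0.34, 95% interval 0.23 to 1.61; adjusted p = 0.117, edgeR).

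hsa-miR-532-5p was above Ctrl in 16 of 17 conditions and below it in RS. Its Ctrl libraries agreed at 146.1 and 145.9 CPM. It was highest at DDR-Sen D4, where both replicates stood at 249 CPM (log2 difference 0.77, SE 0.31, 95% interval 0.13 to 1.41; adjusted p = 0.139, edgeR), and lowest in RS, at 136 and 86.9 CPM (log2 difference -0.40, SE 0.32, 95% interval -1.05 to 0.25). The adjusted p of neither difference passed.

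For hsa-miR-501-3p, hsa-miR-502-3p and hsa-miR-362-5p the 95% interval held 0 in all 17 conditions. hsa-miR-501-3p differed from Ctrl by -0.28 (PMD-Sen D16) to 0.77 (RS), hsa-miR-502-3p by -0.58 (DDR-Sen D2) to 0.36 (RS), and hsa-miR-362-5p by -0.28 (PMD-Sen D16) to 0.68 (PMD-Sen D0). The standard errors of these differences were 0.36 to 0.51. Of the 119 fitted differences of the members 77.3% were above 0, beside 50.8% of those of all tested miRNAs. All 17 comparisons share the same 2 Ctrl libraries, so these signs are not separate observations.

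At D16 the medians were close to 0. The median log2 difference of the 7 members from Ctrl was 0.19 in PMD-Sen, beside 0.05 over all 360 tested miRNAs. In DDR-Sen it was 0.04, beside -0.03. In RS it was 0.46 for the members and 0.12 for all. The RS value came from 1 library, which was also the one with the largest share of the cluster. hsa-miR-501-3p stood at 405.6 CPM in RS replicate 1 and at 132 CPM in replicate 2, and hsa-miR-362-5p at 198 and 70.8 CPM. For hsa-miR-500a-3p the values were 188.5 and 99.8 CPM. Without RS replicate 1 the log2 difference from Ctrl turned from 0.77 to -0.24 for hsa-miR-501-3p, from 0.47 to -0.42 for hsa-miR-362-5p and from 0.46 to -0.05 for hsa-miR-500a-3p. Without RS replicate 2 hsa-miR-501-3p was called, at 1.24.

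**Figure D2:**
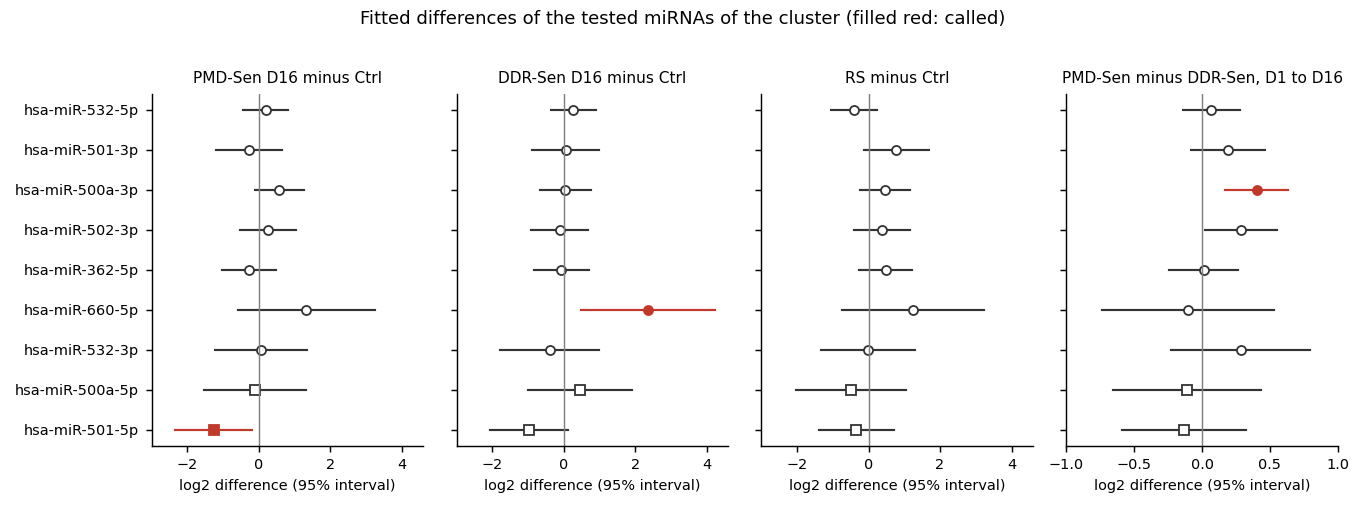
Fitted log2 differences (horizontal axis, points) with 95% intervals (lines) of the 7 tested members (circles) and 2 other arms (squares) in 4 comparisons, with a narrower axis in the last panel; filled red marks a call. hsa-miR-660-5p is called in DDR-Sen D16 minus Ctrl, hsa-miR-501-5p in PMD-Sen D16 minus Ctrl and hsa-miR-500a-3p in PMD-Sen minus DDR-Sen over D1 to D16, and the interval of hsa-miR-502-3p in the last panel also leaves out 0.

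The D16 cells and the RS cells were compared directly by the same rule. Between the D16 cells of both series, 0 of 7 members were called, beside 4.72% of all tested miRNAs. An unadjusted p below 0.05 was reached by 0 members, beside 36 of all 360. Between DDR-Sen D16 and RS, 0 members were called, beside 6.39%, and 57 of all 360 tested miRNAs had an unadjusted p below 0.05. The 1 member with an interval that left out 0 there was hsa-miR-532-5p, at 168.5 and 182 CPM in DDR-Sen D16 against 136 and 86.9 CPM in RS (log2 difference 0.67, SE 0.31, 95% interval 0.05 to 1.29; adjusted p = 0.272, edgeR). Between PMD-Sen D16 and RS, 1 member was called, beside 14.2%. An unadjusted p below 0.05 was reached by 2 of 7 members, beside 94 of all 360 tested miRNAs. The call was hsa-miR-501-3p, at 110 and 150 CPM in PMD-Sen D16, with a log2 difference of -1.05 (SE 0.43, 95% interval -1.93 to -0.17; adjusted p = 0.108, edgeR). RS replicate 2, at 132 CPM, lay between the PMD-Sen D16 libraries, and there were 0 calls without RS replicate 1, 0 without PMD-Sen D16 replicate 1 and 2 without RS replicate 2. The other was hsa-miR-362-5p, at 70.7 and 88.1 CPM in PMD-Sen D16 against 198 and 70.8 CPM in RS (log2 difference -0.75, SE 0.35, 95% interval -1.46 to -0.04; adjusted p = 0.157, edgeR).

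Along each series a slope was fitted on log2(day + 1), with 16 libraries, and called at an adjusted p below 0.05. In PMD-Sen 0 of 7 members had a slope by this test, beside 33.3% of all tested miRNAs, and in DDR-Sen 0 of 7, beside 28.3%. At an unadjusted p below 0.05 there were also 0 members in each series. The difference between the slopes of the series was called for 0 of 7 members, beside 14.4%. At an unadjusted p below 0.05 it was found for 0 members, beside 110 of all 360. The slopes of the 5 abundant members lay between -0.20 and 0.13 per unit in PMD-Sen and between -0.08 and 0.05 in DDR-Sen. The steepest was that of hsa-miR-501-3p in PMD-Sen (-0.20, SE 0.10, 95% interval -0.40 to 0.00, adjusted p = 0.110, edgeR). Its level was 161 to 340.5 CPM from D1 to D4 and 110 to 168.5 CPM from D6 to D16, and at D0 the replicates stood at 312.5 and 89.2 CPM. Without the D0 libraries the slope was -0.30 and was called, with adjusted p = 0.0339 (edgeR), and without replicate 2 of each day it was -0.28 and was called (adjusted p = 0.0202). DESeq2 gave adjusted p = 0.0613.

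The level of the members in PMD-Sen and DDR-Sen was compared over D1 to D16 with 28 libraries and the day as a factor. Here 1 of 7 members was called at an adjusted p below 0.05, beside 21.7% of all tested miRNAs. hsa-miR-500a-3p was higher in PMD-Sen by 0.40 on the log2 scale (SE 0.11, 95% interval 0.17 to 0.64; adjusted p = 0.0102, edgeR). Its levels had a lowest value of 130 CPM, a median of 153 CPM and a highest value of 245 CPM in 14 PMD-Sen libraries, and 96.1, 126 and 184 CPM in 14 DDR-Sen libraries, so the series overlapped. The mean of PMD-Sen was the higher on 6 of 7 days, and both of its replicates lay above both DDR-Sen replicates on 3 of 7 days, D1, D8 and D16. Over all tested miRNAs the median difference was 0.07.

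The higher level of hsa-miR-500a-3p in PMD-Sen was seen in each set of replicates, and its call was not. The log2 difference was 0.54 without replicate 1 (adjusted p = 0.133, edgeR) and 0.23 without replicate 2 (adjusted p = 0.336), and without D16 it was 0.32 (adjusted p = 0.0845). hsa-miR-502-3p, with which it shares reads, was higher in PMD-Sen by 0.28 (SE 0.13, 95% interval 0.02 to 0.55; adjusted p = 0.115, edgeR). When the counts of both were summed, a sum chosen after seeing the data, the difference was 0.30 (SE 0.09, 95% interval 0.10 to 0.49; adjusted p = 0.0213). The other 5 members differed between the series by -0.10 to 0.29, and their intervals held 0.

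The other arms of the cluster add 8 mature miRNAs, of which 6 had a row and 2 passed the low-count filter, hsa-miR-500a-5p and hsa-miR-501-5p. hsa-miR-188-5p reached at most 6 counts and was at 0 in 24 of 36 libraries, and hsa-miR-500b-3p reached at most 3 and was at 0 in 21. hsa-miR-502-5p and hsa-miR-660-3p were at 0 in 33 and 34 libraries. hsa-miR-500a-5p had a median of 31.0 CPM and was called in 0 of the 17 comparisons with Ctrl, beside 9.90% of all tests.

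hsa-miR-501-5p, with a median of 38.2 CPM, was called lower than Ctrl in 5 of 17 comparisons. Over the 18 conditions it did not pass the test (adjusted p = 0.205, edgeR), nor did hsa-miR-500a-5p. It stood at 81.6 and 54.3 CPM in Ctrl and at 54.9 and 94.3 CPM at PMD-Sen D1. By PMD-Sen D8 it stood at 22.4 and 29.2 CPM and at D16 at 21.2 and 37.4 CPM. Both libraries of each of these days lay below both controls. The calls were at PMD-Sen D4, D6, D8 and D16 and at DDR-Sen D6. There the rule called 6.39%, 9.17%, 13.3%, 16.9% and 11.7% of all tested miRNAs, in that order. These comparisons share the same 2 Ctrl libraries, so the 5 calls are not separate observations. At PMD-Sen D8, the lowest, hsa-miR-501-5p fell by 1.38 on the log2 scale (SE 0.55, 95% interval -2.50 to -0.26, adjusted p = 0.102, edgeR). Its adjusted p passed in none of these 5 calls. In DDR-Sen both libraries also lay below both controls at D1 (38.5 and 27.3 CPM), D6 (34.1 and 27.7 CPM) and D16 (28.5 and 38.4 CPM), with log2 differences of -0.99, -1.13 and -0.98. Between the D16 cells of both series the difference was -0.29 (SE 0.53, 95% interval -1.37 to 0.79; adjusted p = 0.914, edgeR).

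Its slope over the PMD-Sen days was called at adjusted p, as were those of 33.3% of all tested miRNAs. It was -0.34 per unit of log2(day + 1) (SE 0.12, 95% interval -0.58 to -0.09; adjusted p = 0.0333, edgeR). In DDR-Sen the slope was -0.03 (SE 0.12; adjusted p = 0.878), with replicates of 20.5 and 59.6 CPM at D3, 84.2 and 65.2 CPM at D4 and 37.2 and 73.3 CPM at D8. The difference of the slopes was -0.35 (95% interval -0.69 to -0.01), and its adjusted p, 0.151 (edgeR), did not pass. The slope in PMD-Sen stayed below 0 under every alternative run and lost its call without the low-count filter (adjusted p = 0.132), on the day as it is (0.0730), without D16 (0.0742), without replicate 1 of each day (0.332) and without replicate 2 (0.0631).

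**Figure D3:**
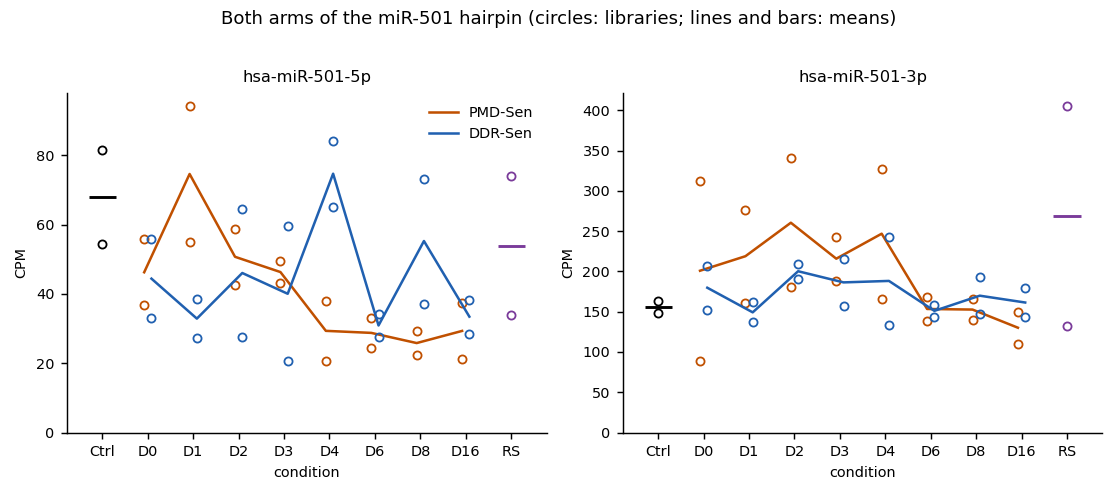
CPM (vertical axes, linear, different in each panel) of hsa-miR-501-5p (left) and hsa-miR-501-3p (right) in Ctrl, on the days of PMD-Sen (orange) and DDR-Sen (blue), and in RS; circles are libraries, lines join the means of 2 replicates and bars are means. In PMD-Sen, hsa-miR-501-5p goes from 54.9 and 94.3 CPM at D1 to 21.2 and 37.4 CPM at D16, and hsa-miR-501-3p ends at 110 and 150 CPM.

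Both arms of a hairpin come from 1 precursor, so their ratio is free of the scaling between libraries. The 5p arm made up 90.1% of the reads of miR-532 pooled over the 36 libraries (2847 of 5p and 314 of 3p, Wilson 95% interval 89.0% to 91.1%), 98.1% of miR-362 (97.4% to 98.7%) and 99.3% of miR-660 (98.05% to 99.8%). It made up 16.9% of miR-500a (15.5% to 18.3%), 18.8% of miR-501 (17.5% to 20.1%) and 0.173% of miR-502 (0.0589% to 0.508%). Hairpins of 1 cluster thus kept opposite arms. The intervals cover counting error only. They leave out the uncertain split of reads between hsa-miR-500a-3p and hsa-miR-502-3p. All 18 bases of hsa-miR-500b-5p, an arm of MIR500B without a row, also lie within hsa-miR-500a-5p. The 5p share of miR-500a could therefore include reads of MIR500B, which was not tested.

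In the miR-501 hairpin the share of the 5p arm was 33.3% and 26.8% in Ctrl, with 19 counts of 5p in each library. From PMD-Sen D2 on it lay between 5.94% and 20.8% in every library, below both controls. Over all PMD-Sen libraries it ranged from 5.94% to 38.5%, where the highest was a D0 library with 13 counts of both arms together. It ranged from 11.5% to 38.7% in DDR-Sen and was 15.4% and 20.4% in RS. In all, 15 of 16 PMD-Sen libraries, 13 of 16 DDR-Sen libraries and both RS libraries lay below both controls. All of these were set against the same 2 Ctrl libraries, whose Wilson 95% intervals were 22.5% to 46.3% and 17.9% to 38.1%. In the miR-362 hairpin the pooled 5p share was 93.3% in Ctrl (84.1% to 97.4%, with 4 counts of 3p). It was 97.9% in PMD-Sen, 98.7% in DDR-Sen and 98.4% in RS. The share of miR-532 ranged from 68.4% to 100% over the 36 libraries, with pooled values of 88.5% in Ctrl, 89.5% in PMD-Sen, 91.2% in DDR-Sen and 85.4% in RS, whose Wilson intervals overlapped. No test was run on the shares.

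The next question was whether the members rose and fell together over the conditions. Over the 18 condition means of log2 CPM, the 21 pairs of tested members had a median Pearson's r of 0.10, from -0.31 to 0.39, and 14 of 21 were above 0. The median Spearman's rho was 0.14. Over all 64620 pairs of tested miRNAs the median r was 0.00. The points of a correlation share libraries and depth, and the values are descriptions without a test.

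The highest correlation between members was that of hsa-miR-532-3p with hsa-miR-362-5p (0.39), which were both highest at PMD-Sen D0, and the lowest that of hsa-miR-501-3p with hsa-miR-660-5p (-0.31). hsa-miR-500a-3p had 0.36 with hsa-miR-502-3p, with which it shares reads, and 0.34 with hsa-miR-532-5p. The arms of miR-532 had an r of -0.02 with each other. The arms of miR-501 had 0.40, slightly above every pair of members. hsa-miR-501-3p and hsa-miR-502-3p, which have the same seed, had 0.10. The order of the pairs rested on a few conditions. Without the 2 conditions farthest from the median of the first miRNA of a pair, the r of hsa-miR-532-3p with hsa-miR-362-5p went from 0.39 to -0.08, and that of hsa-miR-501-3p with hsa-miR-660-5p from -0.31 to -0.06. That of hsa-miR-532-5p with hsa-miR-501-3p went from 0.15 to 0.69. The 21 pairs then ran from -0.28 to 0.69 around a median of 0.13, with 12 above 0.

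The correlations were also taken within each series. Over the 8 PMD-Sen days the median r of the 21 pairs was -0.17, and over the 8 DDR-Sen days it was 0.09. hsa-miR-532-5p and hsa-miR-500a-3p had an r of 0.02 in PMD-Sen and of 0.82 in DDR-Sen, where both were highest at D4. hsa-miR-532-5p and hsa-miR-501-3p had 0.93 in PMD-Sen, where both were higher up to D4, and 0.18 in DDR-Sen. The difference between the series was not tested. Between the replicates of a condition, once the condition mean was taken away, the median r of the 21 pairs was 0.16 over 36 libraries.

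The other clusters, measured in the same way, had higher medians. The median r was 0.34 over 15 pairs of the miR-424 cluster, 0.51 over 15 pairs of miR-106b-25 and 0.76 over 10 pairs of miR-17-92. Over the PMD-Sen days alone these medians were 0.50, 0.11 and 0.24 in the same order, beside -0.17 for the members. Over the DDR-Sen days alone they were 0.64, 0.56 and 0.79, beside 0.09. The size of the gap thus depended on the conditions used. Between replicates, with the condition mean taken away, the medians were 0.25, 0.12 and 0.15, so that by this measure the members, at 0.16, lay among the other clusters. The condition means of the CLCN5 members also had the smaller spread, with a median SD of 0.26 against 0.36, 0.46 and 0.72 in these clusters, and the part of this in the correlations was not tested.

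**Figure D4:**
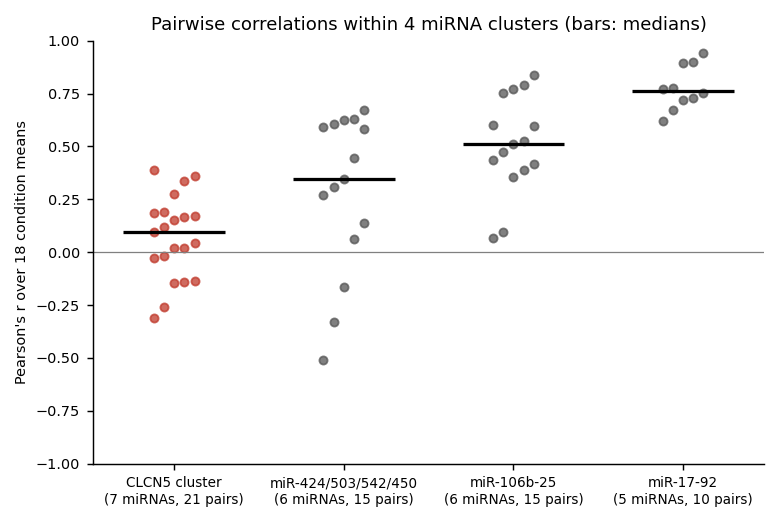
Pearson's r over the 18 condition means of log2 CPM (vertical axis) for each pair of tested miRNAs (points) within 4 clusters (horizontal axis); bars are medians. The 21 pairs of the CLCN5 cluster lie between -0.31 and 0.39 around a median of 0.10, and the 10 pairs of miR-17-92 between 0.62 and 0.94 around 0.76.

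Against the mean log2 CPM of the other tested members, hsa-miR-500a-3p had the highest r, 0.39, followed by hsa-miR-362-5p with 0.26 and hsa-miR-502-3p with 0.23. hsa-miR-660-5p had the lowest, -0.26. The 5 tested miRNAs outside the cluster most like the mean of the members over the 18 conditions were hsa-miR-1185-2-3p (r = 0.64), hsa-miR-1343-3p (0.62), hsa-miR-411-3p (0.61), hsa-miR-770-5p (0.58) and hsa-miR-323b-3p (0.57). The median of all tested miRNAs outside the cluster was -0.01 and the 95th percentile 0.46, so that these 5 are the upper end of 351 values ranked after they were seen.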

How the data were processed

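Small RNA of 36 WI-38 libraries was measured by miRNA-seq (NEXTFLEX Small RNA-Seq Kit v3, MiSeq, 17 PCR cycles). Per the study's methods the reads were processed with exceRpt 4.6.2 against GRCh38 and miRBase. The authors deposited expected counts per mature miRNA, not normalized, of which 1003 of 54288 values were not whole. Libraries were assigned by their labels. Counts were rounded to whole numbers, filtered with filterByExpr on the 18 conditions, scaled by TMM on the 360 miRNAs kept, and tested with edgeR 4.0.16 in R 4.3.3 (quasi-likelihood, Benjamini-Hochberg over the 360). log2 CPM used a prior count of 2. A count of 3 was taken as the floor of a library. Library totals of 81670 to 1933442 set the precision, which floors and intervals describe for counting error only. Named miRNAs were the 8 members, the other arms that passed the filter and the 5 miRNAs most like the members' mean. The members and lists were chosen with earlier results of these data known. Alternatives were DESeq2 1.42.0, other scalings, filters, thresholds, a replicate block and libraries left out. The scripts were checked on simulated counts. mRNA-seq was not used here.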

Additional observations from a re-analysis of the deposited data

Results flagged for a closer look

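The level of hsa-miR-500a-3p differed between PMD-Sen and DDR-Sen over D1 to D16, with a log2 difference of 0.40 (adjusted p = 0.0102, edgeR's quasi-likelihood test on 28 libraries) and a higher PMD-Sen mean on 6 of 7 days. It is listed because the difference between the series was itself tested. With 2 libraries in each condition, no library could be tested for standing apart from its group.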

How the results depend on the processing

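With 2 replicates and 0 to 46 counts a library for the least abundant tested members, single calls depended on the setting. The number of miRNAs tested against Ctrl also changed, to 245 after thinning, 293 with a mean of at least 10 counts and 1393 without the filter. A count of calls with no share of all tested miRNAs beside it, here or above, describes the setting. It is not a result about the members. The 1 call summed over the PMD-Sen days became 3 without the low-count filter, 0 with a mean of at least 10 counts, 0 with DESeq2 and 0 at adjusted p. After thinning all libraries to 81670 counts in 1 draw, with 5 members tested, it became 10, or 25% of 40 tests beside 7.40% of all. Leaving out 1 library gave 0 to 5, with 0 without Ctrl replicate 1 or PMD-Sen D0 replicate 2, 5 without PMD-Sen D4 replicate 1, 3 without either D1 library or D4 replicate 2, and 2 without Ctrl replicate 2, D2 replicate 1 or D6 replicate 1. The 1 call summed over the DDR-Sen days became 2 without the filter, 5 after thinning and 0 at adjusted p, and 0 to 2 with a library left out (0 without Ctrl replicate 2, 2 without D6 replicate 2 or D8 replicate 1). These leave-one-out settings and the sum of hsa-miR-500a-3p and hsa-miR-502-3p were chosen after seeing the data, since leaving out replicate 1 of all conditions leaves no degrees of freedom and was not run. A library left alone in its condition was assumed to vary like the others.

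For DDR-Sen D16 against Ctrl the 1 call became 0 at adjusted p and 0 to 1 with a library left out (0 without Ctrl replicate 2). With DESeq2 and without the filter hsa-miR-660-5p also passed there at adjusted p, 0.0473 and 0.0372. For RS against Ctrl 0 calls became 2 after thinning and 0 to 1 with a library left out (1 without RS replicate 2). For PMD-Sen D16 against DDR-Sen D16 0 became 1 after thinning and 1 with only the 4 libraries compared. For PMD-Sen D16 against RS 1 became 0 without the filter, 0 after thinning, 0 at adjusted p and 0 with only the 4 libraries, and 0 to 2 with a library left out (0 without PMD-Sen D16 replicate 1 or RS replicate 1, 2 without RS replicate 2). For DDR-Sen D16 against RS 0 became 0 to 1 (1 without either RS library). Members with a PMD-Sen slope went from 0 to 1 without D0 and to 0 to 1 without a replicate (1 without replicate 2), and members with a difference of slope to 0 to 1 (1 without replicate 2). Members that differed between the series went from 1 to 2 with total counts and to 2 at unadjusted p, where 120 of all 360 tested miRNAs passed. They went to 0 without the filter, 0 without D16, and 0 to 0 without a replicate. Total counts moved the median of all miRNAs in that comparison from 0.07 to 0.18. The median correlation of the members was 0.19 with total counts, 0.14 as rho, -0.17 in PMD-Sen alone and 0.044 to 0.067 without a replicate. The cause was not tested for any of these.

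In a paired fit with the replicate number as a block the counts of calls were unchanged: 1 over the PMD-Sen days, 1 over the DDR-Sen days, 1 at DDR-Sen D16, 0 in RS, 1 between PMD-Sen D16 and RS, 1 between the series, and 0 for both slopes. The numbers were not taken as pairs, since same-numbered deviations had correlations of -0.46 to 0.37 over 153 pairs of conditions, 53 of them over 0.1.

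The members whose log2 value changed sign under a setting follow, with the values they took. Against Ctrl at PMD-Sen D16, hsa-miR-532-3p took -0.030 with DESeq2's size factors, -0.037 with total counts, -0.035 with DESeq2 and -0.42 to 0.58 with a library left out, and hsa-miR-501-3p 0.68 after thinning. At DDR-Sen D16, hsa-miR-500a-3p took -0.025 with total counts, -0.019 with a mean of at least 10 counts and -0.11 to 0.23 with a library left out. hsa-miR-501-3p took -0.018, -0.011 and -0.068 to 0.20, hsa-miR-502-3p -0.47 to 0.22 and hsa-miR-362-5p 0.88 after thinning and -0.20 to 0.090. In RS, with a library left out, hsa-miR-532-3p took -0.39 to 0.18 (0.012 without the filter), hsa-miR-500a-3p -0.050 to 0.73 and hsa-miR-362-5p -0.42 to 0.92. hsa-miR-501-3p took -0.24 to 1.24 there, the latter called, and hsa-miR-502-3p -0.25 after thinning.

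Slopes in PMD-Sen without a replicate ran from -0.13 to 0.0041 for hsa-miR-532-5p, -0.14 to 0.17 for hsa-miR-502-3p (-0.0060 with total counts, -0.034 after thinning) and -0.057 to 0.71 for hsa-miR-660-5p, and hsa-miR-532-3p took 0.25 without D0. In DDR-Sen they ran from -0.0062 to 0.037 for hsa-miR-532-5p (-0.0056 on the day as it is, -0.0084 without D0) and -0.097 to 0.020 for hsa-miR-501-3p. hsa-miR-362-5p took 0.0065 with DESeq2's size factors, 0.015 with total counts, 0.0054 without the filter, 0.00040 with a mean of at least 10, 0.10 after thinning, 0.0049 with DESeq2, 0.043 without D16 and -0.038 to 0.027 without a replicate. Between the series hsa-miR-532-5p took -0.021 to 0.077, hsa-miR-660-5p 0.0019 with total counts, 0.032 without D16 and -0.77 to 0.16, and hsa-miR-362-5p -0.018 with DESeq2's size factors, -0.033 without the filter, -0.40 after thinning, -0.023 with DESeq2, -0.014 without D16 and -0.085 to 0.078.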
